A study of Homo sapiens with 8 samples.

Results

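Axon guidance ligands and receptors were followed here across 4 treatments of NCH644 cells, a line of stem-like human glioblastoma cells grown as floating neurospheres. The set held 70 genes of the 22458 on the array that carried 1 gene symbol. They were matched by symbol: semaphorins of classes 3 to 7, plexins, neuropilins, ephrins, Eph receptors, SLITs, ROBOs, netrins and netrin-G genes, DCC and the UNC5 receptors. The set was chosen with earlier results of these data known. The 4 hyphenated symbols that matched (antisense and similar transcripts) were left out. By role the set held 20 semaphorins, 11 plexins and neuropilins, 8 ephrins, 13 Eph receptors, 3 SLITs, 4 ROBOs, 6 netrins and 5 members of the DCC and UNC5 group.

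The cells received DMSO, the solvent control, or 5 µM OTX015, or 5 µM panobinostat, or 5 µM of each, and RNA was collected after 24 h. OTX015 blocks BET bromodomain proteins, readers of histone acetylation that help to switch on transcription. Panobinostat is a hydroxamate that inhibits histone deacetylases. Each of the 4 groups had 2 expression arrays, 8 in all, described by the submitters as biological duplicates with RNA extracted at the same time. How the duplicates were separated was not given, so the p-values measure the spread between these arrays only. A single line, 1 dose of each drug and 1 time were studied, and precision is limited by having 2 arrays for each treatment.

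Axon guidance molecules steer growing axons and migrating cells by contact or diffusion. Semaphorins act through plexins, with neuropilins as co-receptors for most secreted class 3 members, and plexin activation changes small GTPases and the actin cytoskeleton. Ephrins and Eph receptor tyrosine kinases sit on opposing cells and signal in both directions, SLITs repel through ROBO receptors, and netrin attracts through DCC or repels through UNC5 proteins. The same families regulate migration, invasion and vessel growth in glioma.

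Values are log2 signals of gene-level probe sets, and a difference of 1 on this scale is a doubling. Changes are read between groups for the same gene and not between genes, since probe sets differ in brightness. Summed signals of marker lists, given below, are weighted toward the brightest probe sets. A level of 3.03 served as background: it is the 95th percentile of group mean signals over 354 olfactory receptor genes, a family largely silent outside the nose. By that measure 50 members were above background in all 4 groups and 8 in some groups. The other 12 were under it throughout: EPHA5, EPHA6, EPHA8, EPHA10, NTN4, NTN5, NTNG1, PLXNA4, ROBO2, SEMA4A, SLIT2 and UNC5D. Where a group lay under background, a fold is given as a lower bound against the background level.

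Duplicates correlated at 0.9903 to 0.993 over all genes, and no pair of arrays was identical. The median difference between duplicates over the members was 0.19 with DMSO, 0.15 with OTX015, 0.12 with panobinostat and 0.13 with both drugs. The largest was 1.18, for EFNA5 with DMSO. Levels of 8 glioma stem and progenitor markers were read beside the line's label. All 8 were above background with DMSO, among them SOX2 at 10.10, OLIG2 at 9.90 and PTPRZ1 at 9.63, while CD44 was at 3.18, close to background. Also above background with DMSO were 6 of 7 neuron, 3 of 5 astrocyte and 2 of 4 oligodendrocyte markers. They included MAP2 at 9.89, S100B at 9.08 and CNP at 8.08. Fewer were above it for endothelial (1 of 6), microglia and macrophage (2 of 6) and pericyte and fibroblast (3 of 6) markers. These levels therefore do not single out the label. OTX015 raised 3 of the 8 stem and progenitor markers and lowered 3, panobinostat raised 1 and lowered 5, and both drugs raised 1 and lowered 6. Among all genes, 7.97% rose and 8.49% fell with OTX015. With panobinostat 19.4% rose and 17.9% fell, and with both drugs 19.2% rose and 18.4% fell. The stem and progenitor marker raised in all 3 treated groups was ITGA6, by 0.76, 2.23 and 1.78 on the log2 scale. In bulk RNA, fewer cells of one type and less RNA per cell cannot be told apart, and this holds for every change below.

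Markers of other cell types moved with the treatments as well. Of 7 measured neuron markers, 4 rose with panobinostat (SYP, SNAP25, STMN2 and SYN1) and 2 fell (MAP2 and DCX). Their summed linear signal was 1085 to 1110 with DMSO, 1297 to 1354 with OTX015, 1385 to 1439 with panobinostat and 1364 to 1395 with both drugs. Among 6 microglia and macrophage markers, PTPRC, AIF1, CX3CR1 and P2RY12 were under background in every group, and CD68 and CSF1R rose with panobinostat and with both drugs. That list's summed linear signal was 61.04 to 84.79 with DMSO, 107.6 to 110.3 with OTX015, 711.3 to 851.9 with panobinostat and 1334 to 1567 with both drugs. It mostly follows CD68, at mean log2 signals of 5.53, 6.35, 9.46 and 10.44, with CSF1R next at 3.52, 3.62, 5.87 and 5.42. The neuron sum with DMSO is mostly MAP2, at 9.89, with SNAP25 next at 5.64. Neither sum measures a cell type. Of 5 astrocyte markers none rose and 2 fell with panobinostat, and of 6 endothelial markers CLDN5 alone was above background. With panobinostat, 1 of 4 oligodendrocyte markers rose (MBP) and 2 fell (MOG and CNP), and of 6 pericyte and fibroblast markers 1 rose (COL1A1) and none fell. Among all genes, 19.4% rose and 17.9% fell with panobinostat, and these marker lists are short. The part of these markers in the changes of the guidance genes was not tested.

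Promoter sequences are shown for the members with the largest changes under single drugs: SEMA3C (largest rise with panobinostat alone), UNC5C (largest fall with panobinostat alone), EFNB2 (largest rise with OTX015) and PLXNB3 (largest fall with OTX015). Each run below covers the 250 bases before a transcription start in RefSeq on GRCh38.p14, read 5′ to 3′ on the gene's own strand. Capitals mark GGGCGG (GC box), CCAAT and TATAAA on either strand. SEMA3C has 2 annotated starts, and both are given.
SEMA3C window 1 chr7:80919052-80919301 minus strand: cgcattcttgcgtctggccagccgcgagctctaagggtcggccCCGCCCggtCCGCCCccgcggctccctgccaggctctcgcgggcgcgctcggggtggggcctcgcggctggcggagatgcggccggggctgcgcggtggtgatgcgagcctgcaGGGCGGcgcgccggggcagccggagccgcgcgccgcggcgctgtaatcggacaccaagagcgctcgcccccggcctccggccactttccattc
SEMA3C window 2 chr7:80922390-80922639 minus strand: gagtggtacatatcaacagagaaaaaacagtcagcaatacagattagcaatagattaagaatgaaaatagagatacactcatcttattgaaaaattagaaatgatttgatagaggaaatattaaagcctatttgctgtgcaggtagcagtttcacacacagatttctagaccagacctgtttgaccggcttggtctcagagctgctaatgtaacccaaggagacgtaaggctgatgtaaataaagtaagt
UNC5C chr4:95548974-95549223 minus strand: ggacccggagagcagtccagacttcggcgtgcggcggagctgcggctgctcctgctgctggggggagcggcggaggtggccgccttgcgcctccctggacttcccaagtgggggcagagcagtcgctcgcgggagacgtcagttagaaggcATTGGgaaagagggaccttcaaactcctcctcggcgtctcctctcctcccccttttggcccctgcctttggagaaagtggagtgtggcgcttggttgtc
EFNB2 chr13:106535663-106535912 minus strand: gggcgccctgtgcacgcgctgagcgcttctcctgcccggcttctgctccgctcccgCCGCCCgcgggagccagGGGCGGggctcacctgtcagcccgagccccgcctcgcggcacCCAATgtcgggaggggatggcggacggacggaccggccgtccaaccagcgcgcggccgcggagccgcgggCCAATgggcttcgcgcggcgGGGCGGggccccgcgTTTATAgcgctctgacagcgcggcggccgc
PLXNB3 chrX:153763999-153764248 plus strand: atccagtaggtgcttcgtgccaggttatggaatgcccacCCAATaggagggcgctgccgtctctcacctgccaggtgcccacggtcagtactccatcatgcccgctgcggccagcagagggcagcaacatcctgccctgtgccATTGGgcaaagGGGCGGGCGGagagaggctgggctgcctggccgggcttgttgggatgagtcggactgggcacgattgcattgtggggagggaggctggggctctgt

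The first SEMA3C window held 3 GC boxes and was 77.6% G and C, whereas the second held none of the 3 motifs and was 36.4% G and C. The EFNB2 window held 3 GC boxes, 2 CCAAT and 1 TATAAA, the PLXNB3 window 2 GC boxes and 2 CCAAT, and the UNC5C window 1 CCAAT. RefSeq windows of 300 bases (250 before to 50 after a start) matched 59 of the 70 members, 92 windows in all. A GC box was in 71.7% of the member windows and in 45.0% of the 35116 windows of all genes. CCAAT was in 30.4% against 34.6%, TATAAA in 3.26% against 11.5%, the E-box CACGTG in 4.35% against 7.26%, and the cyclic AMP response element TGACGTCA in 3.26% against 1.85%. These are counts of letters on both strands, and windows of neighbouring starts can overlap.

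Each drug changed guidance genes in both directions, and panobinostat changed more of them than OTX015 did. A gene was called when its adjusted p was under 0.05 in limma's moderated test over all 22458 genes, with Benjamini-Hochberg adjustment within the comparison. Errors given with ± are standard errors of that fit over the 8 arrays, with 2 arrays a group. With OTX015, 11 members rose (7.97% of all genes did) and 11 fell (8.49% of all genes). With panobinostat, 24 rose, against 19.4% of all genes, and 18 fell, against 17.9%. With both drugs, 23 rose, against 19.2% of all genes, and 19 fell, against 18.4%.

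As shares, 31.4% of the members were called with OTX015, 60.0% with panobinostat and 60.0% with both drugs, and the same shares over all genes were 16.5%, 37.2% and 37.5%. The all-gene shares include genes that lie under background everywhere. The median log2 change of the members was 0.03, 0.12 and 0.09 in the 3 comparisons, and that of all genes was -0.02, -0.05 and 0.01. The median absolute log2 change of the members was 0.31, 0.62 and 0.70, against 0.22, 0.34 and 0.33 over all genes. In all, 49 members were called in at least 1 comparison with DMSO, and 18 were called in none of the 7 comparisons made. The matching shares over all genes were not computed, so these counts are not read as a result about the members. The 3 comparisons share the DMSO arrays.

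**Figure D1:**
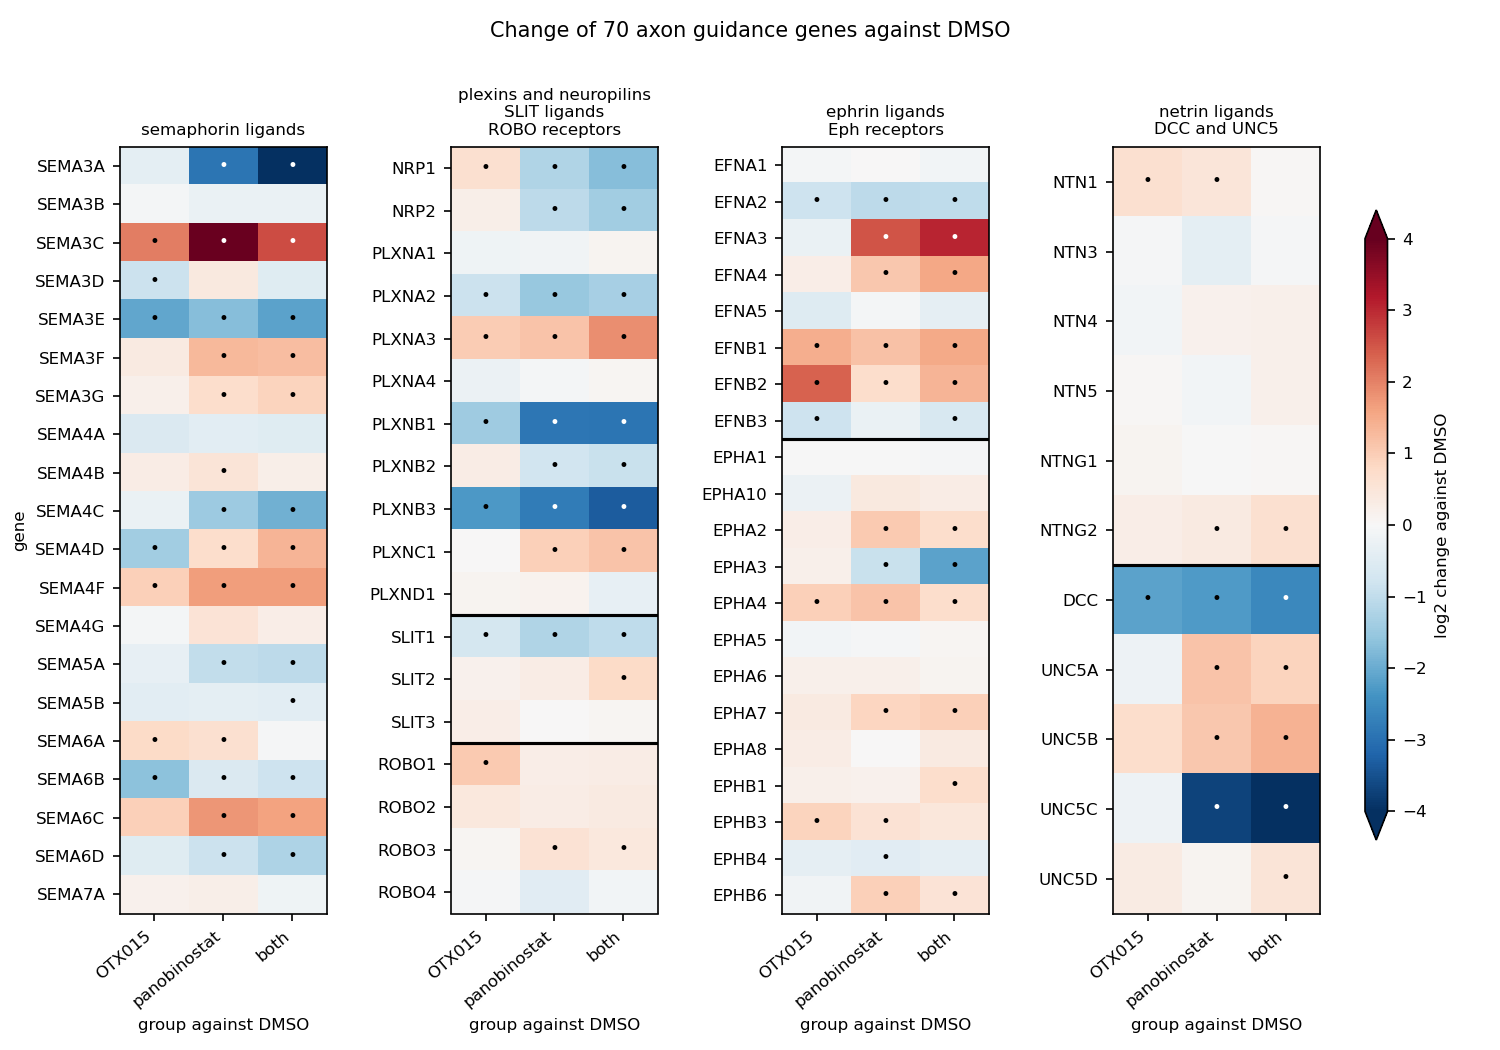
Log2 change against DMSO of each of the 70 genes (rows, in panels by family) with OTX015, panobinostat and both drugs (columns). Red is higher, blue is lower, and a dot marks an adjusted p under 0.05; colours end at 4 in each direction, which SEMA3A and UNC5C pass with both drugs.

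**Figure D2:**
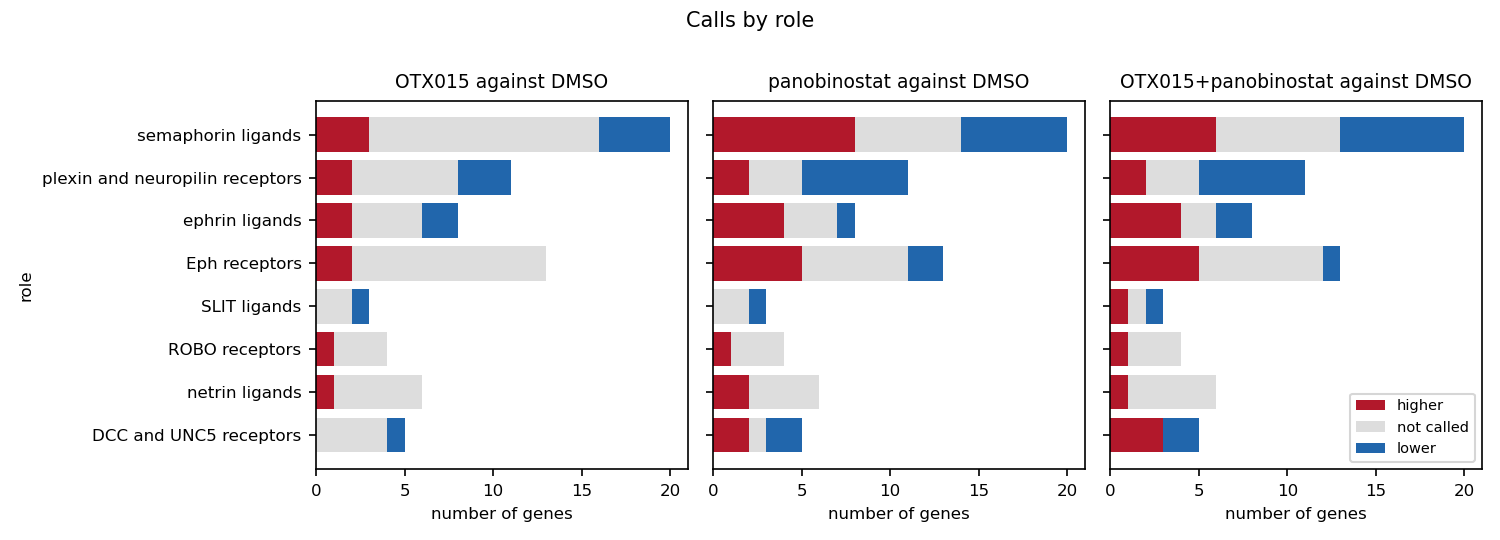
Number of genes of each role (bars) called higher, called lower or not called in the 3 comparisons with DMSO. Of the 11 plexins and neuropilins, 6 fell with panobinostat and 6 with both drugs, and no Eph receptor fell with OTX015. Over all genes, 17.9% fell with panobinostat, 18.4% with both drugs and 8.49% with OTX015.

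The secreted class 3 semaphorins held the largest rise with panobinostat (SEMA3C) and the largest fall with both drugs (SEMA3A). SEMA3A, a repellent that binds neuropilin-1, lost signal with panobinostat and lost more with both drugs, while SEMA3C, a secreted ligand that also signals through neuropilins, gained signal in all 3 treated groups. SEMA3E, which binds plexin D1 without a neuropilin, fell to about background with each treatment. Of the 20 semaphorins of all classes, 3 rose and 4 fell with OTX015, and 8 rose and 6 fell with panobinostat. With both drugs 6 rose and 7 fell. In that order 7, 14 and 13 of the 20 were called, against 16.5%, 37.2% and 37.5% of all genes.

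SEMA3A had log2 signals of 8.56 and 8.58 with DMSO, 7.98 and 8.39 with OTX015, 5.68 and 5.60 with panobinostat, and 3.19 and 3.65 with both drugs. The DMSO and OTX015 arrays lay close together, the panobinostat arrays below them, and the both-drug arrays below those, with no overlap. Its log2 change was -2.93 ± 0.19 with panobinostat (adjusted p = 9.9e-06) and -5.14 ± 0.19 with both drugs (adjusted p = 8.31e-07), a 7.63-fold and a 35.4-fold decrease. With OTX015 alone the log2 change was -0.38 (95% interval -0.82 to 0.05), which was not called.

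SEMA3C had log2 signals of 3.46 and 3.65 with DMSO, 5.63 and 5.57 with OTX015, 7.61 and 7.38 with panobinostat, and 6.10 and 6.22 with both drugs. No group overlapped another, and the panobinostat arrays were highest. It rose by 2.04 ± 0.14 with OTX015 (adjusted p = 0.000135), by 3.94 ± 0.14 with panobinostat (adjusted p = 1.47e-06) and by 2.60 ± 0.14 with both drugs (adjusted p = 3.02e-06) on the log2 scale, or 4.12-fold, 15.4-fold and 6.08-fold. SEMA3E had log2 signals of 4.88 and 4.59 with DMSO, 2.38 and 2.95 with OTX015, 2.98 and 3.07 with panobinostat, and 2.23 and 2.93 with both drugs. Every treated array was at or close to background, so each decrease is given as at least 3.26-fold; the log2 changes were -2.07 ± 0.26, -1.71 ± 0.26 and -2.15 ± 0.26, all called (adjusted p from 0.00022 to 0.00147).

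The other class 3 members moved less. SEMA3F, a ligand of neuropilin-2, rose by 1.29 ± 0.17 with panobinostat and 1.24 ± 0.17 with both drugs on the log2 scale, and SEMA3G by 0.72 ± 0.12 and 0.89 ± 0.12. SEMA3D fell with OTX015 by 0.85, to under background, and its values with panobinostat (0.40) and both drugs (-0.49) were not called. Its OTX015 call was lost without DMSO replicate 1, OTX015 replicate 1 or OTX015 replicate 2 (adjusted p 0.0642 to 0.102). SEMA3B was called in no comparison.

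Membrane-bound semaphorins changed in both directions. SEMA4D, the ligand of plexin B1, fell with OTX015 and rose with panobinostat and with both drugs. SEMA4F and SEMA6C, both transmembrane ligands, rose with panobinostat, and SEMA4C, a ligand of plexin B2, fell. SEMA6A and SEMA6B, ligands of A plexins, went opposite ways with OTX015.

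SEMA4D had log2 signals of 5.27 and 5.55 with DMSO, 3.94 and 4.08 with OTX015, 5.89 and 6.30 with panobinostat, and 6.59 and 6.96 with both drugs. The OTX015 arrays were lowest and the both-drug arrays highest, with no overlap of groups. Its log2 change was -1.40 ± 0.19 with OTX015 (adjusted p = 0.0022), 0.69 ± 0.19 with panobinostat (adjusted p = 0.0214) and 1.37 ± 0.19 with both drugs (adjusted p = 0.000563). The panobinostat call was lost without DMSO replicate 1 or panobinostat replicate 2 (adjusted p 0.115 to 0.146).

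SEMA4C had log2 signals of 5.84 and 5.47 with DMSO, 5.31 and 5.50 with OTX015, 4.17 and 4.21 with panobinostat, and 3.70 and 3.78 with both drugs. It overlapped between DMSO and OTX015 and was lower on all 4 arrays with panobinostat, with log2 changes of -1.47 ± 0.15 alone and -1.91 ± 0.15 with both drugs (adjusted p = 0.000121 and 2.38e-05). SEMA4F had log2 signals of 5.72 and 5.69 with DMSO, 6.63 and 6.69 with OTX015, 7.36 and 7.40 with panobinostat, and 7.33 and 7.44 with both drugs. Here every treated array was above every DMSO array, with log2 changes of 0.96 ± 0.12, 1.68 ± 0.12 and 1.68 ± 0.12, and the panobinostat and both-drug groups overlapped. SEMA4B rose by 0.52 on the log2 scale with panobinostat, a call lost without DMSO replicate 2, panobinostat replicate 1 or panobinostat replicate 2 (adjusted p 0.118 to 0.19) and with each array centred on its median or replicate block (adjusted p 0.0518 to 0.0902).

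SEMA6A had log2 signals of 6.84 and 6.64 with DMSO, 7.54 and 7.50 with OTX015, 7.41 and 7.37 with panobinostat, and 6.69 and 6.70 with both drugs. Each single drug raised it, by 0.78 ± 0.13 and 0.65 ± 0.13 on the log2 scale (adjusted p = 0.00433 and 0.00348), and with both drugs it overlapped the DMSO arrays (-0.05, 95% interval -0.33 to 0.24). SEMA6B had log2 signals of 5.25 and 4.94 with DMSO, 3.39 and 3.53 with OTX015, 4.72 and 4.28 with panobinostat, and 4.24 and 4.29 with both drugs. All 3 treated groups lay below DMSO, the OTX015 arrays lowest, with log2 changes of -1.63 ± 0.18, -0.59 ± 0.18 and -0.83 ± 0.18. Its panobinostat call was lost without DMSO replicate 1 or panobinostat replicate 2 (adjusted p 0.159 to 0.203) and with only the groups compared (adjusted p 0.0715), and its log2 change was -0.37 without panobinostat replicate 2.

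SEMA6C had log2 signals of 3.21 and 3.78 with DMSO, 4.40 and 4.47 with OTX015, 5.11 and 5.40 with panobinostat, and 4.70 and 5.53 with both drugs. Treated arrays were all above DMSO, and the log2 changes were 1.76 ± 0.28 with panobinostat (adjusted p = 0.00116) and 1.62 ± 0.28 with both drugs (adjusted p = 0.00179); with OTX015 the value of 0.94 was not called (adjusted p = 0.0544). SEMA5A, a ligand of plexin B3, fell by 0.99 and 1.05 with panobinostat and both drugs on the log2 scale, and SEMA6D by 0.85 and 1.25. SEMA5B fell by 0.43 with both drugs. That call was lost without DMSO replicate 1, DMSO replicate 2 or both-drug replicate 1 (adjusted p 0.122 to 0.266) and with trend and robust moderation, replicate block or only the groups compared (adjusted p 0.0504 to 0.102); without both-drug replicate 1 the log2 change was -0.26. SEMA4A, SEMA4G and SEMA7A, the last a lipid-anchored ligand of plexin C1, were not called against DMSO.

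Of the plexins and neuropilins, the semaphorin receptors, more fell than rose in the groups with panobinostat. All 3 B plexins (PLXNB1, PLXNB2 and PLXNB3, receptors of class 4 and class 5 semaphorins) fell with panobinostat and with both drugs, and PLXNB1 and PLXNB3 also fell with OTX015. Both neuropilins fell with panobinostat. PLXNA3 rose in all 3 treated groups and PLXNC1 in those with panobinostat. Of the 11 receptors, 2 rose and 3 fell with OTX015, and 2 rose and 6 fell with panobinostat and again with both drugs. Their median log2 change was 0.02, -0.75 and -0.89. Called shares were 45.5%, 72.7% and 72.7% of these receptors, against 16.5%, 37.2% and 37.5% of all genes.

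PLXNB3 had log2 signals of 7.67 and 8.06 with DMSO, 5.63 and 5.52 with OTX015, 5.03 and 5.10 with panobinostat, and 4.56 and 4.52 with both drugs. The groups did not overlap and stepped down from DMSO to OTX015 to panobinostat to both drugs. The log2 changes were -2.29 ± 0.15, -2.80 ± 0.15 and -3.32 ± 0.15 (adjusted p from 1.6e-06 to 0.000123), that is 4.88-fold and 6.97-fold decreases with the single drugs. PLXNB1 had log2 signals of 6.70 and 7.05 with DMSO, 5.47 and 5.42 with OTX015, 3.97 and 4.01 with panobinostat, and 3.97 and 3.92 with both drugs. Panobinostat and both-drug arrays lay together below the OTX015 arrays, with log2 changes of -1.43 ± 0.14, -2.88 ± 0.14 and -2.93 ± 0.14 (adjusted p from 2.23e-06 to 0.000595). PLXNB2 fell by 0.75 ± 0.15 and 0.89 ± 0.15 on the log2 scale with panobinostat and both drugs, and its OTX015 value of 0.30 was not called.

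PLXNA3, a receptor subunit for class 3 semaphorins, had log2 signals of 5.55 and 5.69 with DMSO, 6.80 and 6.48 with OTX015, 6.74 and 6.79 with panobinostat, and 7.42 and 7.55 with both drugs. The 2 single-drug groups overlapped above DMSO, and the both-drug arrays were highest. It rose by 1.02 ± 0.15, 1.15 ± 0.15 and 1.86 ± 0.15 on the log2 scale (adjusted p from 2.11e-05 to 0.0026). PLXNA2, a receptor for SEMA6A among others, had log2 signals of 4.74 and 5.17 with DMSO, 4.25 and 3.91 with OTX015, 3.44 and 3.45 with panobinostat, and 3.58 and 3.69 with both drugs. Every treated array was under the DMSO arrays, with log2 changes of -0.87 ± 0.18, -1.51 ± 0.18 and -1.32 ± 0.18, and the OTX015 call was lost without DMSO replicate 2 or OTX015 replicate 2 (adjusted p 0.066 to 0.092). PLXNC1 was under background with DMSO and OTX015 and rose with panobinostat (log2 change 0.97, at least 1.17-fold) and both drugs (1.14, at least 1.32-fold). PLXNA1 and PLXND1 were above background throughout and were not called against DMSO.

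NRP1, the co-receptor of SEMA3A, had log2 signals of 4.89 and 4.72 with DMSO, 5.41 and 5.50 with OTX015, 3.50 and 3.67 with panobinostat, and 2.90 and 3.30 with both drugs. It was highest with OTX015 and lowest with both drugs, near background, with no overlap between groups. The log2 changes were 0.65 ± 0.16 (adjusted p = 0.0284), -1.22 ± 0.16 (adjusted p = 0.000451) and -1.70 ± 0.16 (adjusted p = 6.27e-05). The rise with OTX015 was lost without any 1 of the 4 arrays compared (adjusted p 0.0597 to 0.141). NRP2 fell by 1.06 ± 0.15 and 1.41 ± 0.15 on the log2 scale with panobinostat and both drugs, and its OTX015 value of 0.25 was not called.

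**Figure D3:**
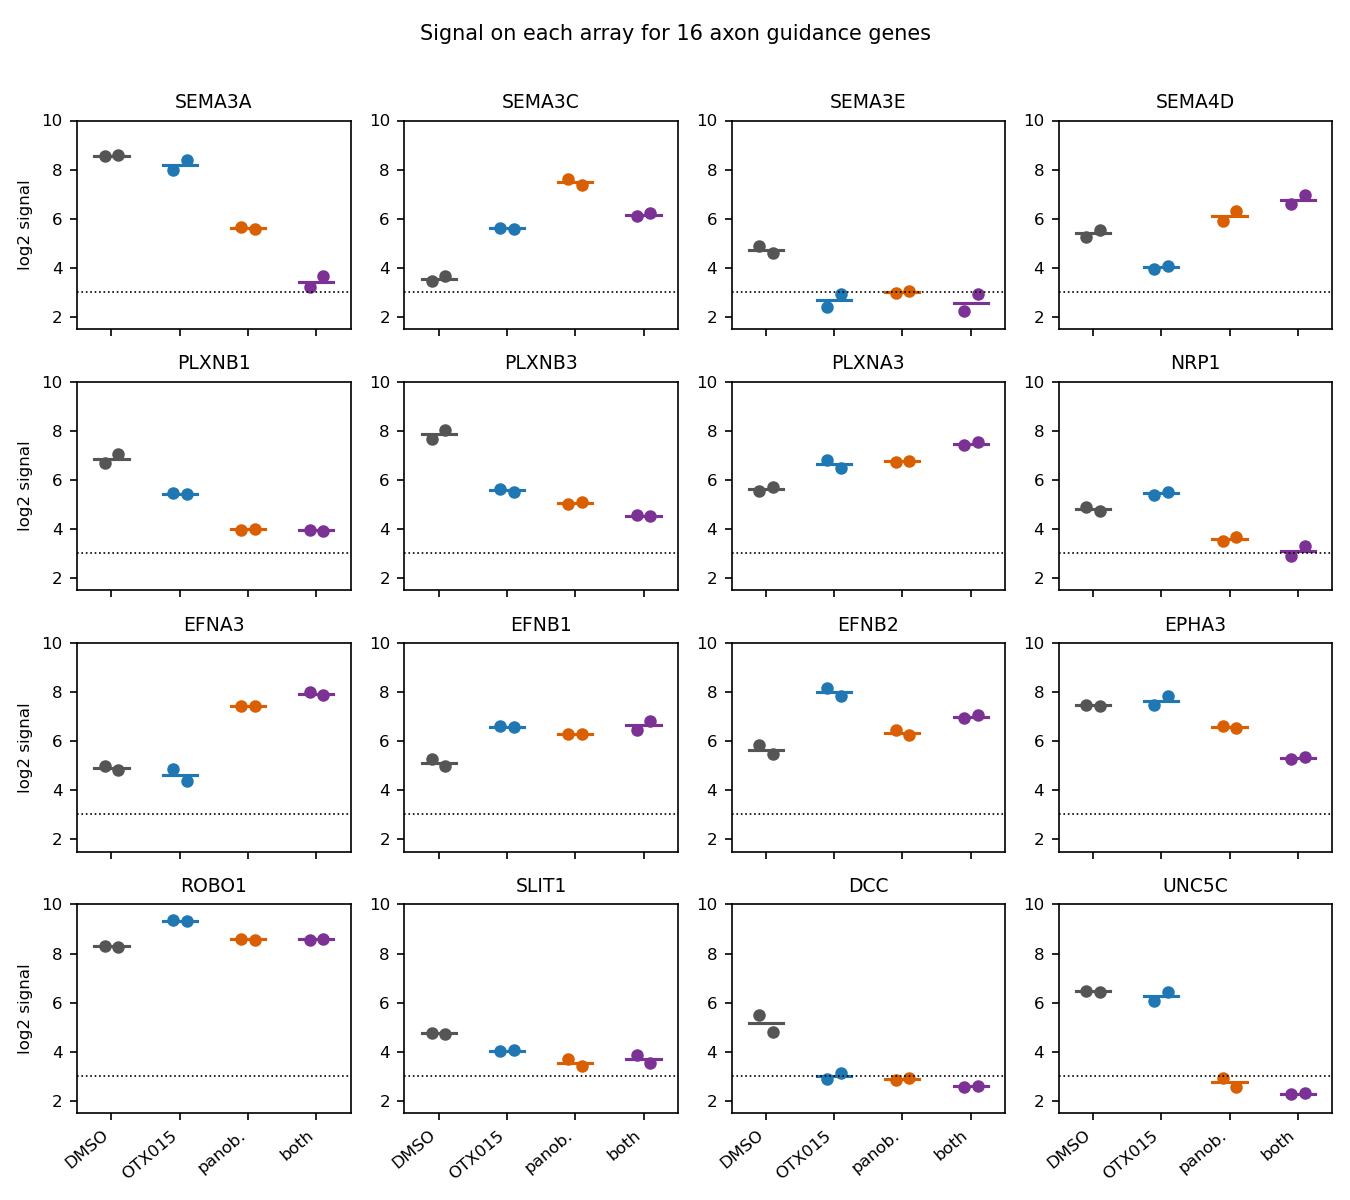
Log2 signal (vertical axis) on each of the 8 arrays (points) by treatment for 16 members, with bars at group means and a dotted line at the background level of 3.03. SEMA3A and UNC5C drop in the groups with panobinostat, DCC and SEMA3E lie near the dotted line in every treated group, and EFNB2 and ROBO1 are highest with OTX015.

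More ephrin ligands rose than fell in the groups with panobinostat, and as many rose as fell with OTX015. EFNA3, a lipid-anchored ephrin, gained the most and gained it with panobinostat; EFNB1 and EFNB2, transmembrane ephrins that signal back into their own cell, rose in all 3 treated groups, and EFNB2 most with OTX015. EFNA2 fell in all 3. Of the 8 ephrins, 2 rose and 2 fell with OTX015, and 4 rose and 1 fell with panobinostat. With both drugs 4 rose and 2 fell. Over all genes, 7.97% rose and 8.49% fell with OTX015, and 19.4% rose and 17.9% fell with panobinostat. With both drugs 19.2% of all genes rose and 18.4% fell. Whether the balance of rises and falls in these 8 genes differs from that of all genes was not tested.

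EFNA3 had log2 signals of 4.98 and 4.83 with DMSO, 4.89 and 4.38 with OTX015, 7.44 and 7.42 with panobinostat, and 8.02 and 7.87 with both drugs. DMSO and OTX015 overlapped, and all 4 arrays with panobinostat were above them. It rose by 2.53 ± 0.18 with panobinostat (adjusted p = 1.42e-05) and 3.04 ± 0.18 with both drugs (adjusted p = 4.24e-06) on the log2 scale, 5.76-fold and 8.22-fold. With OTX015 the log2 change was -0.27 (95% interval -0.67 to 0.13), not called. EFNA4, another lipid-anchored ephrin, had log2 signals of 3.74 and 3.35 with DMSO, 3.82 and 3.80 with OTX015, 4.49 and 4.78 with panobinostat, and 5.28 and 4.91 with both drugs. All 4 arrays with panobinostat were above the rest, by 1.09 ± 0.19 alone and 1.55 ± 0.19 with both drugs as log2 changes against DMSO.

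EFNB2, the ligand of EPHB4 in vessels, had log2 signals of 5.84 and 5.47 with DMSO, 8.19 and 7.83 with OTX015, 6.45 and 6.26 with panobinostat, and 6.93 and 7.07 with both drugs. The OTX015 arrays were highest, every treated array was above DMSO, and no groups overlapped. It rose by 2.36 ± 0.18 with OTX015 (adjusted p = 0.000213), 0.70 ± 0.18 with panobinostat (adjusted p = 0.0147) and 1.35 ± 0.18 with both drugs (adjusted p = 0.000413) on the log2 scale. The panobinostat call was lost without DMSO replicate 2 or panobinostat replicate 1 (adjusted p 0.0913 to 0.0917). EFNB1 had log2 signals of 5.28 and 4.99 with DMSO, 6.61 and 6.57 with OTX015, 6.29 and 6.30 with panobinostat, and 6.48 and 6.81 with both drugs. Every treated array was above both DMSO arrays, with log2 changes of 1.46 ± 0.16, 1.16 ± 0.16 and 1.51 ± 0.16 (adjusted p from 0.0001 to 0.000809).

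EFNA2 had log2 signals of 5.26 and 5.03 with DMSO, 4.26 and 4.36 with OTX015, 4.03 and 4.16 with panobinostat, and 4.13 and 4.15 with both drugs. Every treated array was below DMSO, with log2 changes of -0.84 ± 0.13, -1.05 ± 0.13 and -1.01 ± 0.13 (adjusted p from 0.000337 to 0.00407). EFNB3, the third transmembrane ephrin, fell by 0.82 with OTX015 and 0.63 with both drugs on the log2 scale. The first of these calls was lost without OTX015 replicate 1 (adjusted p 0.0561) and the other without DMSO replicate 1 or both-drug replicate 2 (adjusted p 0.0616 to 0.0629). EFNA1 and EFNA5 were called in no comparison, and EFNA5 was the member whose DMSO arrays differed most.

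More Eph receptors were called higher than lower against DMSO, and the largest change was a fall, in EPHA3 with both drugs. Of the rises, EPHA7 and EPHB6 started under background, and some calls of EPHA2 and EPHB3 were lost with 1 array left out. EPHA3, a receptor for A ephrins described in glioblastoma stem-like cells, fell with panobinostat and more with both drugs. EPHA4, which binds ephrins of both classes, rose in all 3 treated groups, and EPHA2, EPHA7 and the kinase-inactive EPHB6 rose with panobinostat. Of the 13 receptors, 2 rose and none fell with OTX015, 5 rose and 2 fell with panobinostat, and 5 rose and 1 fell with both drugs. In that order 15.4%, 53.8% and 46.2% were called, against 16.5%, 37.2% and 37.5% of all genes.

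EPHA3 had log2 signals of 7.49 and 7.45 with DMSO, 7.46 and 7.86 with OTX015, 6.62 and 6.56 with panobinostat, and 5.28 and 5.35 with both drugs. DMSO and OTX015 overlapped, panobinostat arrays were lower, and both-drug arrays were lowest. The log2 change was -0.88 ± 0.15 with panobinostat (adjusted p = 0.00195) and -2.16 ± 0.15 with both drugs (adjusted p = 1.21e-05), 1.84-fold and 4.46-fold decreases, and with OTX015 it was 0.19 (95% interval -0.16 to 0.54), not called. EPHA4 had log2 signals of 4.92 and 4.75 with DMSO, 5.70 and 5.89 with OTX015, 5.91 and 6.06 with panobinostat, and 5.46 and 5.59 with both drugs. Each treated array was above DMSO, with log2 changes of 0.96 ± 0.14, 1.15 ± 0.14 and 0.69 ± 0.14 (adjusted p from 0.000271 to 0.00426).

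EPHA2, a receptor often abundant in glioblastoma, had log2 signals of 3.29 and 3.21 with DMSO, 3.42 and 3.64 with OTX015, 4.50 and 4.07 with panobinostat, and 4.09 and 3.83 with both drugs. It rose by 1.04 ± 0.18 with panobinostat and 0.71 ± 0.18 with both drugs on the log2 scale, and the second call was lost without DMSO replicate 2 or both-drug replicate 1 (adjusted p 0.057 to 0.0798). EPHA7 had log2 signals of 2.45 and 2.24 with DMSO, 2.52 and 2.90 with OTX015, 3.20 and 3.21 with panobinostat, and 3.40 and 3.21 with both drugs. It was under background without panobinostat and just above it with panobinostat, a rise of at least 1.13-fold alone and 1.22-fold with both drugs (log2 changes 0.86 ± 0.16 and 0.97 ± 0.16).

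EPHB6 had log2 signals of 2.94 and 2.86 with DMSO, 2.83 and 2.72 with OTX015, 3.87 and 3.84 with panobinostat, and 3.45 and 3.42 with both drugs. It crossed background in the same 2 groups, rising at least 1.78-fold and 1.33-fold (log2 changes 0.95 ± 0.12 and 0.53 ± 0.12). EPHB3 had log2 signals of 4.96 and 5.40 with DMSO, 6.10 and 6.02 with OTX015, 5.68 and 5.87 with panobinostat, and 5.58 and 5.69 with both drugs. The treated arrays were all above DMSO, with log2 changes of 0.88 ± 0.17 and 0.59 ± 0.17 with the single drugs, and the both-drug value of 0.45 was not called (adjusted p = 0.0666). The OTX015 call was lost without OTX015 replicate 1 (adjusted p 0.0615). The panobinostat call was lost without DMSO replicate 1 or panobinostat replicate 2 (adjusted p 0.127) and with only the groups compared (adjusted p 0.0569), and without DMSO replicate 1 its log2 change was 0.37.

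EPHB1 rose by 0.71 on the log2 scale with both drugs and had uncalled values of 0.19 and 0.17 with the single drugs. EPHB4 fell by 0.45 with panobinostat, a call lost without any 1 of the 4 arrays compared (adjusted p 0.0762 to 0.108). Against DMSO the remaining Eph receptors were not called: EPHA1 lay just above background, and EPHA5, EPHA6, EPHA8 and EPHA10 lay under it.

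Of the SLIT and ROBO genes above background in every group, SLIT1 and ROBO1 changed against DMSO. SLIT1, a secreted repellent, fell in all 3 treated groups. ROBO1, its receptor, rose with OTX015. SLIT1 had log2 signals of 4.76 and 4.73 with DMSO, 4.03 and 4.06 with OTX015, 3.69 and 3.41 with panobinostat, and 3.88 and 3.55 with both drugs. Every treated array was below DMSO, with log2 changes of -0.70 ± 0.16, -1.19 ± 0.16 and -1.03 ± 0.16. The OTX015 call (adjusted p = 0.0178) was lost without any 1 of the 4 arrays compared, although the log2 change stayed between -0.71 and -0.69. ROBO1 had log2 signals of 8.32 and 8.28 with DMSO, 9.35 and 9.32 with OTX015, 8.61 and 8.54 with panobinostat, and 8.56 and 8.60 with both drugs. The OTX015 arrays stood clear above all others, by 1.03 ± 0.12 on the log2 scale against DMSO (adjusted p = 0.000994). Its values of 0.28 with panobinostat and 0.28 with both drugs were not called.

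ROBO3, a receptor that controls midline crossing, had log2 signals of 2.86 and 2.83 with DMSO, 2.96 and 2.90 with OTX015, 3.43 and 3.43 with panobinostat, and 3.41 and 3.11 with both drugs. It rose from under background at least 1.32-fold with panobinostat and 1.17-fold with both drugs (log2 changes 0.58 ± 0.14 and 0.41 ± 0.14). The panobinostat call was lost without panobinostat replicate 1, although the log2 change stayed at 0.58. The both-drug call was lost without DMSO replicate 1, DMSO replicate 2 or both-drug replicate 1 (adjusted p 0.112 to 0.263) and with each array centred on its median, quantile normalization, trend and robust moderation or only the groups compared (adjusted p 0.0898 to 0.116), and without both-drug replicate 1 its log2 change was 0.26. SLIT2 was called higher with both drugs (0.76 ± 0.22) although both groups lay under background, a call lost without DMSO replicate 1, DMSO replicate 2 or both-drug replicate 2 (adjusted p 0.0721 to 0.137). SLIT3, ROBO2 and ROBO4 were called in no comparison. Of the 3 SLITs 1 fell with each treatment and 1 rose with both drugs, and of the 4 ROBOs 1 rose with each. Over all genes 16.5%, 37.2% and 37.5% were called with OTX015, panobinostat and both drugs. Counts in so few genes are not read as a result about SLITs or ROBOs as groups.

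Netrin receptors held the largest changes of the netrin system in each treated group. DCC, the attractive netrin receptor, fell to about background with every treatment, and UNC5C, a repulsive one, fell to under background with panobinostat alone or combined and was not called with OTX015. UNC5A and UNC5B rose with panobinostat. Of the 6 netrins, 1 rose with OTX015, 2 with panobinostat and 1 with both drugs, and none fell. Those are 16.7%, 33.3% and 16.7% of the netrins, near or under the 16.5%, 37.2% and 37.5% of all genes called. Of the 5 receptors, none rose and 1 fell with OTX015, 2 rose and 2 fell with panobinostat, and 3 rose and 2 fell with both drugs.

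UNC5C had log2 signals of 6.48 and 6.45 with DMSO, 6.07 and 6.44 with OTX015, 2.94 and 2.57 with panobinostat, and 2.27 and 2.30 with both drugs. DMSO and OTX015 arrays lay close together, and all 4 arrays with panobinostat were under background. The decrease was at least 10.8-fold in both groups with panobinostat, with log2 changes of -3.71 ± 0.17 (adjusted p = 2.58e-06) and -4.18 ± 0.17 (adjusted p = 1.08e-06). With OTX015 the log2 change was -0.21 (95% interval -0.60 to 0.18). DCC had log2 signals of 5.50 and 4.80 with DMSO, 2.89 and 3.13 with OTX015, 2.86 and 2.93 with panobinostat, and 2.56 and 2.61 with both drugs. Every treated group mean was under background, a decrease of at least 4.36-fold, with log2 changes of -2.14 ± 0.22, -2.26 ± 0.22 and -2.57 ± 0.22 (adjusted p from 2.95e-05 to 0.000585).

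UNC5A had log2 signals of 4.18 and 4.05 with DMSO, 3.85 and 3.94 with OTX015, 5.41 and 5.11 with panobinostat, and 4.95 and 5.09 with both drugs. All 4 arrays with panobinostat were above the rest, by 1.14 ± 0.15 alone and 0.90 ± 0.15 with both drugs as log2 changes against DMSO. UNC5B, a receptor also found on endothelium, had log2 signals of 3.74 and 3.67 with DMSO, 4.67 and 4.18 with OTX015, 4.58 and 4.99 with panobinostat, and 4.88 and 5.29 with both drugs. Every treated array was above DMSO, with log2 changes of 1.08 ± 0.22 and 1.38 ± 0.22 in the groups with panobinostat and an uncalled 0.72 with OTX015 (adjusted p = 0.0586). UNC5D was called higher with both drugs (0.50 ± 0.15) with both groups under background. That call was lost without DMSO replicate 1, DMSO replicate 2 or both-drug replicate 2 (adjusted p 0.0718 to 0.162) and with each array centred on its median or trend and robust moderation (adjusted p 0.0532 to 0.0535).

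NTN1, the diffusible netrin, had log2 signals of 5.85 and 5.75 with DMSO, 6.30 and 6.59 with OTX015, 6.38 and 6.20 with panobinostat, and 5.96 and 5.72 with both drugs. Both single-drug groups were above DMSO, and the both-drug arrays overlapped it. Its log2 changes were 0.64 ± 0.16 with OTX015 and 0.49 ± 0.16 with panobinostat, and 0.04 with both drugs (95% interval -0.32 to 0.40). The OTX015 call was lost without DMSO replicate 1, DMSO replicate 2 or OTX015 replicate 2 (adjusted p 0.0671 to 0.155), and the panobinostat call without any 1 of the 4 arrays compared (adjusted p 0.067 to 0.185) and with each array centred on its median (adjusted p 0.0784).

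NTNG2, a lipid-anchored netrin-G that does not use DCC, had log2 signals of 4.58 and 4.65 with DMSO, 4.92 and 4.82 with OTX015, 4.93 and 5.04 with panobinostat, and 5.26 and 5.23 with both drugs. It rose by 0.63 ± 0.12 with both drugs (adjusted p = 0.00356) and by 0.37 ± 0.12 with panobinostat (adjusted p = 0.0432) on the log2 scale, the arrays of every treated group being above DMSO. The panobinostat call was lost without any 1 of the 4 arrays compared (adjusted p 0.0811 to 0.202) and with each array centred on its median, quantile normalization, trend and robust moderation, replicate block or only the groups compared (adjusted p 0.0505 to 0.109). NTN3 was above background and NTN4, NTN5 and NTNG1 under it, and none of them was called.

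Panobinostat added to OTX015 changed more members than OTX015 added to panobinostat, and the same order held over all genes. In the first case 31 of the 70 members were called, against 30.0% of all genes. In the second 7 of the 70 were called, against 10.4% of all genes. The order is therefore not read as a result about the members. Against OTX015 alone, both drugs raised 15 members (15.3% of all genes rose) and lowered 16 (14.7% of all genes fell). The largest falls were in SEMA3A (-4.76 ± 0.19), UNC5C (-3.97 ± 0.17, at least 9.36-fold), NRP1 (-2.35 ± 0.16) and EPHA3 (-2.35 ± 0.15), as log2 changes. The largest rises were in EFNA3 (3.31 ± 0.18) and SEMA4D (2.76 ± 0.19). EFNB2 and ROBO1, raised by OTX015, were lower again by 1.01 and 0.75 on the log2 scale. All 3 B plexins were lower with both drugs than with OTX015 alone, with log2 changes from -1.50 to -1.04.

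Calls of 9 members in that comparison were lost when 1 array was left out. SEMA3C, raised by 0.56, was lost without OTX015 replicate 1, OTX015 replicate 2 or both-drug replicate 2 (adjusted p 0.0578 to 0.0858), SEMA5A without OTX015 replicate 2 (adjusted p 0.0553), SEMA6B without OTX015 replicate 1 (adjusted p 0.0619) and SEMA6D without OTX015 replicate 2 or both-drug replicate 2 (adjusted p 0.0538 to 0.0687). EPHA7 was lost without OTX015 replicate 1 or both-drug replicate 1 (adjusted p 0.124 to 0.149) and EPHB1 without OTX015 replicate 2 or both-drug replicate 1 (adjusted p 0.09 to 0.102). NTN1 was lost without OTX015 replicate 2 or both-drug replicate 2 (adjusted p 0.111 to 0.127) and PLXND1 without any 1 of the 4 arrays compared (adjusted p 0.0848 to 0.194). EPHA10, under background in both groups, was lost without OTX015 replicate 2, both-drug replicate 1 or both-drug replicate 2 (adjusted p 0.129 to 0.264), and without OTX015 replicate 2 its log2 change was 0.34.

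Against panobinostat alone, both drugs raised 2 members (4.33% of all genes rose) and lowered 5 (6.1% of all genes fell). SEMA3A changed by -2.21 ± 0.19 (adjusted p = 0.0009), SEMA3C by -1.34 ± 0.14 (adjusted p = 0.00168) and EPHA3 by -1.28 ± 0.15 (adjusted p = 0.00277) as log2 changes, and these 3 calls were kept in every alternative tried. SEMA3D and SEMA6A were lower by 0.89 and 0.69, and PLXNA3 and EPHB1 were higher by 0.72 and 0.54. Each of these 4 was lost without any 1 of the 4 arrays compared, at adjusted p of 0.0793 to 0.119 for SEMA3D, 0.057 to 0.0864 for SEMA6A, 0.0705 to 0.113 for PLXNA3 and 0.0771 to 0.164 for EPHB1. EPHB1 was also lost with only the groups compared (adjusted p 0.0656). With every left-out array the counts were 0 higher and 3 lower.

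Panobinostat and OTX015 were also compared directly, at the same concentration and time. The arrays do not measure how far each drug inhibited its targets, so equal concentration need not mean equal inhibition. With panobinostat 17 members were higher (16.0% of all genes) and 14 lower (13.3% of all genes). EFNA3 (2.80 ± 0.18), SEMA4D (2.09 ± 0.19) and SEMA3C (1.90 ± 0.14) were most above their OTX015 levels, and UNC5C (-3.50 ± 0.17, at least 9.36-fold), SEMA3A (-2.55 ± 0.19) and NRP1 (-1.87 ± 0.16) most below, as log2 differences. EFNB2 was 1.66 lower and ROBO1 0.75 lower with panobinostat. DCC, at background in both groups, differed by -0.12 (95% interval -0.61 to 0.37) and was not called. PLXNB3 was lower by 0.51, lost without any 1 of the 4 arrays compared (adjusted p 0.0872 to 0.155).

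The count of higher members in that direct comparison was 11 without OTX015 replicate 1 and 11 without panobinostat replicate 2. Among the 12 calls lost with 1 array left out were 8 rises. EFNA4 was lost without OTX015 replicate 1, OTX015 replicate 2 or panobinostat replicate 2 (adjusted p 0.0547 to 0.0807), EFNB3 without any 1 of the 4 arrays compared (adjusted p 0.0673 to 0.13), EPHA2 without OTX015 replicate 1 or panobinostat replicate 1 (adjusted p 0.0863 to 0.09) and EPHA10 without OTX015 replicate 2 or panobinostat replicate 2 (adjusted p 0.128 to 0.135). PLXNC1 was lost without OTX015 replicate 1 or panobinostat replicate 1 (adjusted p 0.0534 to 0.0545), ROBO3 without any 1 of the 4 arrays compared (adjusted p 0.0797 to 0.115), SEMA3G without OTX015 replicate 2 or panobinostat replicate 2 (adjusted p 0.0675 to 0.0755) and SEMA4G without any 1 of the 4 arrays compared (adjusted p 0.0635 to 0.232). Of the falls, PLXNA2 was lost without OTX015 replicate 1, panobinostat replicate 1 or panobinostat replicate 2 (adjusted p 0.1 to 0.172), SEMA5A without OTX015 replicate 2 or panobinostat replicate 1 (adjusted p 0.0766 to 0.0832) and SLIT1 without any 1 of the 4 arrays compared (adjusted p 0.0512 to 0.249).

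For many members the change with both drugs was not the sum of the single-drug changes. The interaction, the log2 change with both drugs less the sum of the log2 changes with each drug, was called positive for 9 members (6.32% of all genes) and negative for 12 (7.42% of all genes). SEMA3C had the most negative value, -3.38 ± 0.20 (adjusted p = 0.000442): it rose with each drug and its level with both was between the single-drug levels. SEMA3A (-1.83 ± 0.27) and EPHA3 (-1.47 ± 0.22) fell further with both drugs than the sum. EFNB2 (-1.71 ± 0.25), SEMA6A (-1.47 ± 0.18), EPHA4 (-1.42 ± 0.20) and ROBO1 (-1.03 ± 0.17) rose with OTX015, and with both drugs lay under their OTX015 levels, a difference called for all but EPHA4. SEMA4D had the most positive value, 2.08 ± 0.27 (adjusted p = 0.00287), its fall with OTX015 having turned to a rise in the combination.

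Of the 9 positive values, 7 belonged to genes whose single-drug falls sum to a level under background: DCC, SEMA3E, PLXNA2, PLXNB1, PLXNB3, SEMA6B and SLIT1. PLXNB3, for instance, was at a mean log2 signal of 4.54 with both drugs, where the sum gives 2.78, and DCC at 2.58, where the sum gives 0.76. The share of that limit in these 7 values was not tested. EFNA2 (sum at 3.26) and SEMA4D (sum at 4.70) were the positive values without it, and none of the 12 negative values had a sum under background.

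Calls of 8 of the 21 interactions were lost when 1 of the 8 arrays was left out. EFNA2 was lost without OTX015 replicate 1, OTX015 replicate 2, panobinostat replicate 1 or both-drug replicate 1 (adjusted p 0.0514 to 0.0735), EFNB1 without OTX015 replicate 1, OTX015 replicate 2, panobinostat replicate 1 or panobinostat replicate 2 (adjusted p 0.0505 to 0.0528), NRP1 without OTX015 replicate 2 or panobinostat replicate 2 (adjusted p 0.0567 to 0.0597) and NTN1 without OTX015 replicate 2 or panobinostat replicate 1 (adjusted p 0.0569 to 0.0586). PLXNA2 was lost without DMSO replicate 2, OTX015 replicate 2, panobinostat replicate 1, panobinostat replicate 2, both-drug replicate 1 or both-drug replicate 2 (adjusted p 0.0619 to 0.0975) and SEMA3E without DMSO replicate 1, OTX015 replicate 1, panobinostat replicate 1 or panobinostat replicate 2 (adjusted p 0.0588 to 0.0735). EPHB3 was lost without DMSO replicate 1, OTX015 replicate 1, OTX015 replicate 2, panobinostat replicate 1, panobinostat replicate 2, both-drug replicate 1 or both-drug replicate 2 (adjusted p 0.0501 to 0.0856). SLIT1 was lost without DMSO replicate 1, DMSO replicate 2, OTX015 replicate 1, OTX015 replicate 2, panobinostat replicate 2 or both-drug replicate 1 (adjusted p 0.0779 to 0.117) and with quantile normalization (adjusted p 0.056). The other 13 were kept in every alternative tried.

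**Figure D4:**
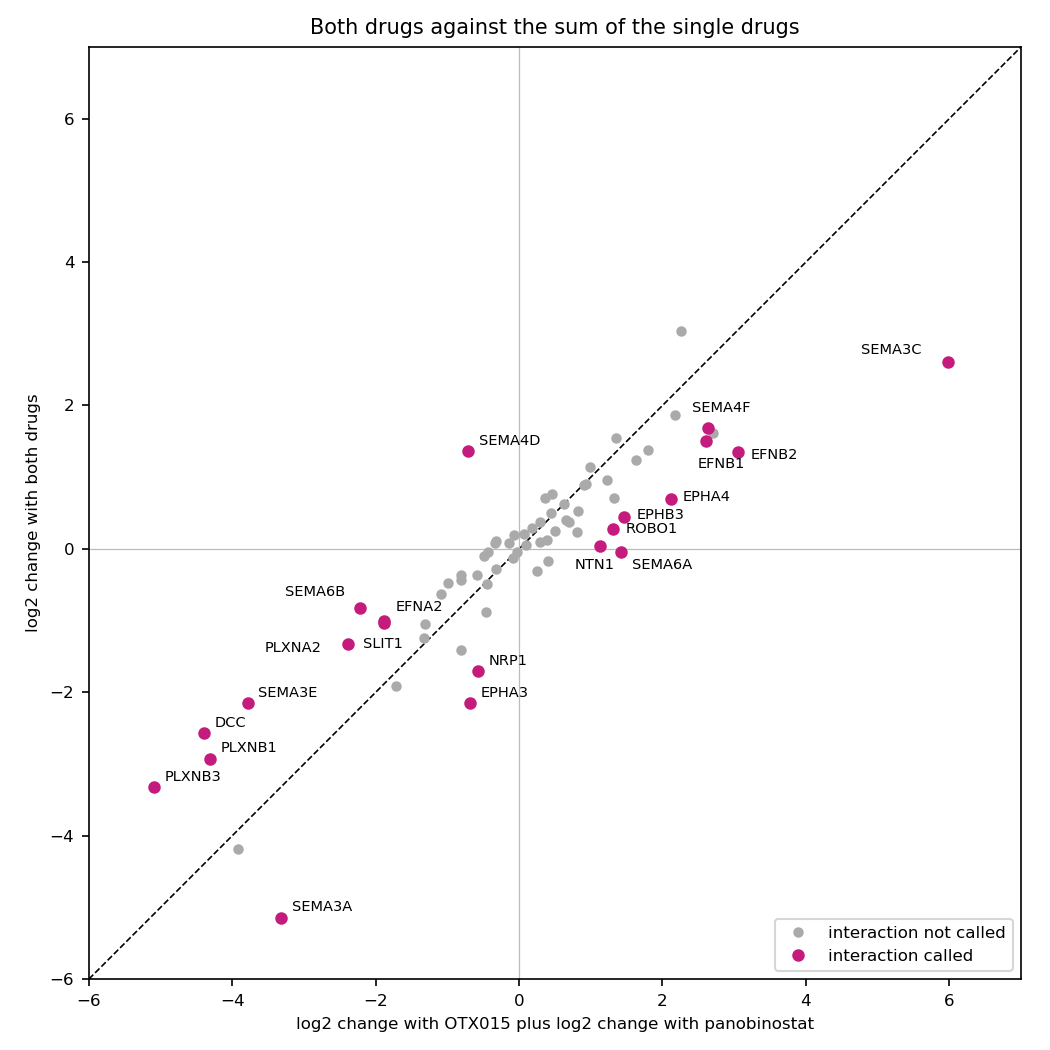
Log2 change with both drugs (vertical axis) against the sum of the log2 changes with OTX015 and with panobinostat (horizontal axis) for the 70 members. The dashed line marks equality, and the 21 named members have a called interaction: SEMA3C, SEMA3A and EPHA3 lie well below the line and SEMA4D, DCC and PLXNB3 well above it.

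Of 81 other genes of these pathways, 73 were measured. With OTX015 12 rose and 7 fell (7.97% and 8.49% of all genes did). With panobinostat 16 rose and 25 fell (19.4% and 17.9% of all genes), and with both drugs 18 rose and 26 fell (19.2% and 18.4% of all genes). The median log2 changes over the 73 were 0.01, -0.14 and -0.13. NEO1, the neogenin receptor related to DCC, rose in all 3, by 1.34 ± 0.13, 2.57 ± 0.13 and 2.46 ± 0.13 on the log2 scale. With OTX015 the Rac activator TIAM1 (1.17 ± 0.13), ARHGEF12 (0.99 ± 0.14) and the adaptor GRB10 (0.95 ± 0.13) were the next largest rises. Among called genes above background in both groups, LRRC4B (-1.46 ± 0.21), DSCAML1 (-1.04 ± 0.15) and PDZRN3 (-0.75 ± 0.20) fell most.

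Among genes above background in both groups, the largest rises with panobinostat were in RRAS (2.60 ± 0.17), a small GTPase that plexins inactivate, NEO1 and the actin-oxidising enzyme MICAL2 (2.43 ± 0.19). The largest falls were in the adaptor EFS (-3.89 ± 0.33) and the cofilin phosphatases SSH2 (-1.72 ± 0.13) and SSH1 (-1.69 ± 0.14). With both drugs and by the same measure, RRAS (2.09 ± 0.17) and the actin-binding ABLIM3 (1.72 ± 0.21) followed NEO1 upward, and EFS (-3.53 ± 0.33), SSH1 (-2.23 ± 0.14), MICAL1 (-1.83 ± 0.18) and LRRC4B (-1.72 ± 0.21) fell most. By branch, 5 of 23 measured Slit and netrin pathway genes rose and 11 fell with panobinostat, 7 of 19 semaphorin pathway genes rose and 6 fell, 4 of 16 Eph pathway genes rose and 5 fell, and none of 15 cytoskeletal effectors rose and 3 fell. Over all genes, 19.4% rose and 17.9% fell with panobinostat. Values with ± in this paragraph are log2 changes against DMSO.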

How the data were processed

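The submitters hybridised biotin-labelled total RNA to expression arrays, per the labels. The deposited table holds log2 signals. The submitters' processing notes name RMA, the package affy (1.36.1) and R (2.15.1). Neither the array model nor the probe set definitions are named in those sources. RMA subtracts background and equalises array distributions, so a shift shared by all genes is removed. Array medians were 3.87 to 4. Of 23786 probe sets, 22458 had 1 gene symbol and 1328 had none. limma 3.58.1 in R 4.3.3 fitted 4 group means to the 8 arrays (4 residual and 4.41 prior degrees of freedom) for 7 comparisons, two-sided, and was tested on simulated data. The 14 other settings covered normalization, dim genes, moderation, the replicate block, the groups fitted and each array left out. Array values are given for up to 5 members per role with the largest called change against DMSO and at least 1 group above background, and for every called interaction. From the pathway list, up to 4 called genes per direction are named. The members and lists were chosen with earlier results of these data known.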

Additional observations from a re-analysis of the deposited data

Results flagged for a closer look

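The effect of panobinostat differed with and without OTX015 for 21 members, by the test of that difference itself: limma's interaction term at an adjusted p under 0.05. Those were 30.0% of the members, against 13.7% of all genes tested. A positive value means a log2 change with both drugs above the sum of the single-drug changes. Among the semaphorins the log2 interactions were SEMA3A -1.83, SEMA3C -3.38, SEMA3E 1.63, SEMA4D 2.08, SEMA4F -0.96, SEMA6A -1.47 and SEMA6B 1.39. Among the plexins and neuropilins they were PLXNA2 1.06, PLXNB1 1.39, PLXNB3 1.76 and NRP1 -1.14. For the ephrins they were EFNA2 0.88, EFNB1 -1.10 and EFNB2 -1.71, and for the Eph receptors EPHA3 -1.47, EPHA4 -1.42 and EPHB3 -1.02. In the SLIT and netrin systems they were SLIT1 0.86, ROBO1 -1.03, NTN1 -1.09 and DCC 1.82. The levels behind these values, the 7 genes whose summed single-drug falls lie under background, and the 8 calls lost with 1 array left out are given with the interaction results above. Groups of 2 arrays allow no test for a single outlying array.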

How the results depend on the processing

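With 2 arrays a group, signals near background and small changes limit what could be called. Leaving out 1 array makes calls harder to reach, so some calls ended with the log2 change nearly the same. Over the 14 other settings, 1820 of 2022 values of called members stayed called in the same direction, 202 were no longer called, and none reversed. Leaving out arrays gave counts of 9 to 9 higher and 8 to 10 lower with OTX015, 19 to 21 and 16 to 18 with panobinostat, 20 to 22 and 18 to 19 with both drugs, 12 to 14 and 12 to 15 for both drugs against OTX015, 0 to 0 and 3 to 3 for both drugs against panobinostat, 11 to 12 and 10 to 12 for panobinostat against OTX015, and 6 to 8 and 8 to 13 for the interaction. Members higher with both drugs than with panobinostat, 2 as reported, numbered 4 with quantile normalization, 4 without the lowest 25% of genes, 4 with trend and robust moderation, and 1 with only the groups compared; the cause was not tested. Settings other than left-out arrays also ended calls for both drugs against OTX015 in EPHA7, EPHA10 and PLXND1, and for panobinostat against OTX015 in EFNB3, ROBO3, SEMA4G and SLIT1.

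The labels number the duplicates 1 and 2 in each group. Same-numbered arrays of different groups deviated from their group means with correlations of 0.0467 to 0.118, and 1 of 6 pairs was above 0.1, so the number was not taken to pair arrays. With the replicate number as a block, 192 of 196 values stayed called and 4 were lost, and the members higher with both drugs than with panobinostat numbered 4 in place of 2.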
